A study of Mus musculus with 217 samples.

Results

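Striatal mRNA of 10 genes that carry dopamine and adenosine signals through cAMP was followed in LacQ140 mice, a Huntington disease knock-in line. The genes were chosen by name as members of the DARPP-32 cascade, with earlier results of these data known, out of 54532 genes counted. All 10 had counts in every library, and counts of them set beside shares of all genes are a description. They were *Gnal* and *Gng7* (G protein subunits), *Adcy5* (adenylyl cyclase), *Rgs9* and *Rasd2* (regulators), *Prkar2b* (a subunit of protein kinase A), and the kinase targets *Ppp1r1b* (DARPP-32), *Arpp21*, *Arpp19* and *Ptpn5*. In spiny projection neurons, the main cell type of the striatum, D1 dopamine receptors and the adenosine receptors encoded by *Adora2a* stimulate adenylyl cyclase through the olfactory-type G protein, D2 dopamine receptors inhibit it through Gi/o proteins, and cAMP releases the catalytic subunits of protein kinase A. The kinase phosphorylates DARPP-32, which then inhibits protein phosphatase 1, and it acts on other striatal phosphoproteins that bind calmodulin or restrain other phosphatases. Loss of these transcripts is a long-known feature of the striatum in Huntington disease and in its mouse models.

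All mice were C57BL/6 and carried a transgene that expresses the *Lac* repressor from the β-actin promoter in every tissue, the WT groups included. LacQ140 mice were heterozygous for the *LacO-140Q* allele, in which *Lac* operators in the *Htt* promoter let the repressor lower the expression of mutant *Htt* (m*Htt*), in part and not fully, unless the lactose analog IPTG is given; the line came from 2 targeted ES cell clones. WT mice were never given IPTG and WT + IPTG mice were given it from embryonic day 5 throughout, as were LacQ140 mice, in which m*Htt* was thus always expressed. IPTG was never given to LacQ140_A mice, and it was withdrawn at 2 months of age in LacQ140_2M mice and at 8 months in LacQ140_8M mice. Striatum and cortex were taken at 6 months (5 groups) and at 12 months (6 groups), with 5 females and 5 males per group, except that WT, LacQ140 and LacQ140_8M had 4 females and 5 males (n = 9) in the 12-month striatum.

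The 217 libraries held between 33292057 and 68038831 counts each, so that all 10 genes were counted deeply in the striatum. Levels are given as CPM, counts relative to the library total, scaled by trimmed mean of M values (TMM) over all libraries, as mean ± SD over mice. A gene was called when its adjusted *P* value was below 0.05 and its fold change at least 1.2, in a quasi-likelihood test fitted over all genes of a tissue and age. *Htt* reads do not part the alleles: total striatal *Htt* was 96.3 ± 10.3 CPM in LacQ140, 83.4 ± 7.63 in LacQ140_A and 84.3 ± 8.51 in LacQ140_2M at 6 months (SD, n = 10 each), and neither lowering group passed the test against LacQ140 (adjusted *P* = 0.0749 and 0.150), while LacQ140_A was lower than WT (log2 fold change -0.40, adjusted *P* = 0.000234). At 12 months it was 107.5 ± 10.9 CPM in LacQ140 (n = 9), 90.7 ± 15.3 in LacQ140_A, 97.6 ± 10.8 in LacQ140_2M (n = 10 each) and 107.9 ± 8.02 in LacQ140_8M (SD, n = 9); LacQ140_A and LacQ140_2M did not pass against LacQ140 (adjusted *P* = 0.0515 and 0.569), nor did LacQ140_8M, and total *Htt* of LacQ140_8M was not lower than that of LacQ140. LacQ140 itself was lower than WT + IPTG at 12 months (142.8 ± 11.5 CPM, n = 10; log2 fold change -0.40, adjusted *P* = 9.21e-06); at 6 months this difference was -0.12 (adjusted *P* = 0.281). The 6- and 12-month libraries are labelled as separate batches and were deposited apart, so age and batch cannot be told apart. The 12-month cortex stood apart from the rest: the slope of log2 CPM on log2 transcript length had group medians from -0.32 to -0.20 there and from 0.18 to 0.38 in the other tissue and age sets, and levels of 12-month cortex were not compared with those of other sets. In the striatum, 8 libraries at 6 months, 5 of them WT + IPTG, and 11 at 12 months held more than 3 times the median level of cortical, thalamic or choroid plexus markers. Each count of the 10 genes called between striatal groups of the same age was also made without them. Differences between ages, tissues or sexes were not tested without them.

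The 8 spiny neuron markers checked the tissue. Their summed level had medians of 5611 CPM in striatum and 235 CPM in cortex of WT + IPTG mice at 6 months. In LacQ140 striatum the median was 3853 CPM at 6 months (range 3189 to 4395, against 4811 to 6549 in WT + IPTG) and 3244 CPM at 12 months (2742 to 3528, against 5893 to 7709), and all 8 markers were called lower at both ages. In bulk tissue, fewer spiny neurons and less RNA per spiny neuron cannot be told apart, and this holds for every difference given here.

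The promoters of 4 genes are shown to give a start site of the cyclase, of a regulator, of a G protein subunit and of the kinase target that changed most. Each is the stretch of 250 bases before a RefSeq transcript start (GRCm38.p6), and 9 stretches of 8 genes were searched. *Gnal* was left out, and no stretch of *Ppp1r1b* was available. Stretches with more than 30 bases in annotated exons were dropped, a limit not placed on the promoter stretches set beside them. The cAMP response element core TGACG, on either strand, lay in 1 of the 9 (*Gng7*, 109 bases before the start), against 17.7% of 32817 promoter stretches of the same length. *Gng7* had 2 stretches, and the one shown was picked because it holds this core. Its start lies inside the gene (80948624 to 81014945). The letters TATAAA, the core of a TATA box, lay on the strand of the gene in 1 of the 9 (*Rgs9*), against 7.60%. In *Rgs9* they lay in the part of the stretch farther from the start. Capitals mark these matches, which describe the letters only.
*Gng7*, chr10:81001366-81001615, minus strand: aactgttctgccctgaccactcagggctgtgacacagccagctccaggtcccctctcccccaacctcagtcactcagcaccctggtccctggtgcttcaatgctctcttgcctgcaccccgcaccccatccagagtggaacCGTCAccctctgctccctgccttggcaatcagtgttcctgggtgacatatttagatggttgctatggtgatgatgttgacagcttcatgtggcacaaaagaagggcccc
*Rgs9*, chr11:109298182-109298431, minus strand: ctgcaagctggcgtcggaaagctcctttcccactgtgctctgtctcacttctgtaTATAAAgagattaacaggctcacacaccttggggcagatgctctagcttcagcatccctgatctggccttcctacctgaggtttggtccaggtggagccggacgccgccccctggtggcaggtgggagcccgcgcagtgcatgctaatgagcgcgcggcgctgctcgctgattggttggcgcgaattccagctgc
*Adcy5*, chr16:35154614-35154863, plus strand: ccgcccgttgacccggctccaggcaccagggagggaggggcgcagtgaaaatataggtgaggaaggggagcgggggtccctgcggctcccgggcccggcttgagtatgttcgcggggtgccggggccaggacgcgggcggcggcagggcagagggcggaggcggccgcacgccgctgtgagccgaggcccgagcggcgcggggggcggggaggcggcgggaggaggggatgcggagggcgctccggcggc
*Arpp19*, chr9:75037364-75037613, plus strand: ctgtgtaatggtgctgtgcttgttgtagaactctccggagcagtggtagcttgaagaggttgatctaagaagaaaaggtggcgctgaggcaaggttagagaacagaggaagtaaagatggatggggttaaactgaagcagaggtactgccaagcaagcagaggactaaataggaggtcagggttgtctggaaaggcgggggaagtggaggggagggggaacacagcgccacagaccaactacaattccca

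In the striatum of WT + IPTG mice at 6 months, *Ppp1r1b* was by far the most abundant transcript per length, at 1102 CPM per kilobase of its longest transcript. *Gng7* followed at 375 CPM per kilobase, then *Arpp21* at 270.2, *Ptpn5* at 226, *Rasd2* at 225, *Arpp19* at 184, *Adcy5* at 141, *Rgs9* at 122 and *Gnal* at 107.7, and *Prkar2b* was lowest at 28.4. Neighbours in this order such as *Ptpn5* and *Rasd2* differed by less than the spread between mice. *Ppp1r1b* lies on chromosome 11 (98348404 to 98357796), where the antisense gene *1700003D09Rik* had a median of 5.02 CPM in striatum. Whether the counting used strand is not given in the sources used here, so reads of such overlapping genes cannot be told apart.

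All 10 genes were higher in striatum than in cortex of WT + IPTG mice at 6 months, where 13.8% of 37981 genes tested were called higher in striatum. *Rgs9* (regulator of G protein signaling 9, which speeds the turn-off of Gi/o proteins) differed most, with a log2 fold change of 4.92 ± 0.19 (SE). *Ppp1r1b* followed at 3.95 ± 0.12, *Rasd2* at 3.43 ± 0.08 and *Gng7* at 3.24 ± 0.09. The 2 least restricted were *Arpp19* (1.24 ± 0.08) and *Prkar2b* (1.12 ± 0.09), both of which are also used by many other cells. In WT + IPTG cortex, *Rgs9* ran from 8.00 to 25.9 CPM with a median of 9.95, against 322 to 539 CPM in striatum, and the tissues did not overlap for any of the 10 genes. The share of all genes without overlap was not counted, here or in the comparisons of groups below.

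**Figure D1:**
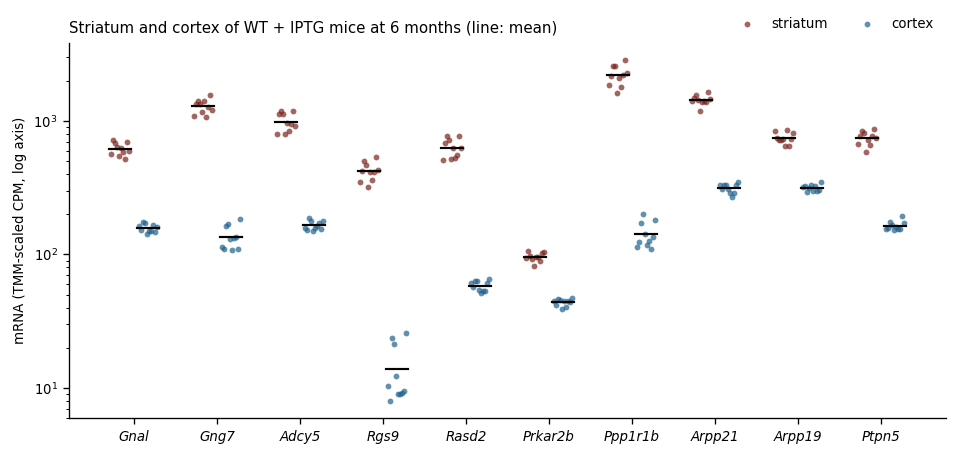
TMM-scaled CPM (log axis) of the 10 genes in striatum (red) and cortex (blue) of WT + IPTG mice at 6 months; each point is a mouse and the line is the mean of 10. Every striatal point lies above every cortical point of the same gene, with the widest gap for *Rgs9* and the narrowest for *Prkar2b*.

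To see whether IPTG itself touched the cascade, WT + IPTG was compared with WT. None of the 10 genes was called in striatum at 6 months, where 0.455% of genes were called, or at 12 months, where 0.138% were. By the quasi-likelihood test 1 gene at 6 months (*Adcy5*, log2 fold change -0.18, adjusted *P* = 0.508) and 0 at 12 months had an unadjusted *P* value below 0.05, and DESeq2 called none either. At 6 months *Adcy5* was 1115 ± 183 CPM in WT and 987 ± 157 in WT + IPTG (SD, n = 10 each). All 10 point estimates were below 0 at 6 months (-0.18 to -0.01, median -0.09), and they ran from -0.10 to 0.08 at 12 months. Marker levels of the tissue also differed at 6 months. Summed thalamic markers had medians of 51.6 CPM in WT and 92.1 in WT + IPTG, cortical excitatory neuron markers 29.7 and 45.8. Spiny neuron markers had 6238.4 and 5611.4, and the part of these markers was not tested. WT + IPTG had the same treatment as LacQ140 and is its control below. LacQ140_A, LacQ140_2M and LacQ140_8M differ from LacQ140 in IPTG as well as in m*Htt*, and the 2 cannot be told apart within those comparisons.

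At 6 months, 6 of the 10 genes were called lower in LacQ140 than in WT + IPTG striatum, where 3.85% of 35808 genes were called lower, and none was called higher. The median log2 fold change was -0.32 over the 10 genes and 0.00 over all genes tested. The decline was largest in a pair of kinase targets. *Arpp19*, whose phosphorylated protein inhibits protein phosphatase 2A, ran from 647 to 854 CPM (median 733) in WT + IPTG and from 333.8 to 463 (median 427) in LacQ140. All 10 LacQ140 mice lay below the lowest WT + IPTG mouse, and the log2 fold change was -0.81 ± 0.08 (SE; adjusted *P* = 6.78e-12 in edgeR). *Arpp21*, a calmodulin-binding kinase target also called RCS, ran from 1196 to 1637 CPM (median 1429) in WT + IPTG and from 801 to 1041 (median 949.8) in LacQ140. These groups did not overlap either, with a log2 fold change of -0.60 ± 0.05 (adjusted *P* = 1.91e-14).

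*Ptpn5*, the striatal-enriched tyrosine phosphatase STEP, ran from 586 to 873 CPM (median 759) in WT + IPTG and from 547 to 645 (median 593) in LacQ140 at 6 months. The groups overlapped, with 4 LacQ140 mice below the WT + IPTG range, and the log2 fold change was -0.34 ± 0.06 (adjusted *P* = 1.41e-05). *Ppp1r1b* itself ran from 1605 to 2862 CPM (median 2205) in WT + IPTG and from 1526 to 2101 (median 1713) in LacQ140. It overlapped widely, with 2 LacQ140 mice below the WT + IPTG range, and its log2 fold change of -0.30 ± 0.10 was the call nearest the threshold (adjusted *P* = 0.0317). The *Ppp1r1b* call was lost when any of 6 single libraries was left out (LacQ140 F2, F4 or M2, or WT + IPTG F3, F4 or M4; adjusted *P* 0.0503 to 0.0802).

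Upstream of the kinase, *Adcy5*, the main adenylyl cyclase of spiny neurons, ran from 791 to 1184 CPM (median 953) in WT + IPTG and from 634 to 920.4 (median 781) in LacQ140 at 6 months. Of the LacQ140 mice 5 lay below the WT + IPTG range, and the log2 fold change was -0.35 ± 0.08 (adjusted *P* = 0.00184). *Rgs9* ran from 322 to 539 CPM (median 417) in WT + IPTG and from 281 to 368 (median 340.3) in LacQ140, with 3 LacQ140 mice below the WT + IPTG range and a log2 fold change of -0.33 ± 0.07 (adjusted *P* = 0.000911). The remaining 4 genes did not pass: *Rasd2*, the small GTPase Rhes, was at -0.21 ± 0.09 (adjusted *P* = 0.123), *Gng7* at -0.12 ± 0.06, *Gnal* at -0.08 ± 0.06 and *Prkar2b* at -0.06 ± 0.05. *Rasd2* was called with the WT groups averaged as control (-0.27, adjusted *P* = 0.0146) and without the libraries high in neighbouring-tissue markers (-0.34, adjusted *P* = 0.0309), which brought the count to 7.

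At 12 months, 8 of the 10 genes were called lower in LacQ140 striatum, where 4.77% of 35386 genes were called lower, and none was called higher; the count was also 8 without the libraries high in neighbouring-tissue markers. The median log2 fold change of the 10 genes was -0.70, against 0.00 over all genes. *Arpp19* ran from 508 to 684 CPM (median 606) in WT + IPTG and from 224.4 to 299.2 (median 275.1) in LacQ140, which left LacQ140 at 45.1% of the WT + IPTG mean (log2 fold change -1.14 ± 0.07, adjusted *P* = 2.34e-19). *Arpp21* ran from 1199 to 1741 CPM (median 1480.3) in WT + IPTG and averaged 746.7 ± 52.1 (SD, n = 9; lowest 675, median 763) in LacQ140, at 50.1% of the WT + IPTG mean (-0.99 ± 0.06, adjusted *P* = 4.10e-20). For both genes the highest LacQ140 mouse lay well below the lowest WT + IPTG mouse.

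The cyclase followed closely. *Adcy5* ran from 1317 to 1743 CPM (median 1523) in WT + IPTG and from 725 to 929.6 (median 784) in LacQ140 at 12 months, a log2 fold change of -0.91 ± 0.06 (adjusted *P* = 2.19e-21). *Ppp1r1b* ran from 2210.4 to 3714 CPM (median 2837) in WT + IPTG and from 1312 to 1844 (median 1666) in LacQ140, a log2 fold change of -0.78 ± 0.08 (adjusted *P* = 2.04e-11). Neither gene overlapped between the groups, which left DARPP-32 mRNA at 57.7% and *Adcy5* at 52.9% of the WT + IPTG mean. *Rgs9* fell to 59.6% (-0.74 ± 0.06), *Ptpn5* to 62.4% (-0.67 ± 0.06) and *Rasd2* to 62.6% (-0.66 ± 0.06), again with all 9 LacQ140 mice below the lowest of the WT + IPTG mice (adjusted *P* from 6.64e-16 to 1.43e-14).

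The G protein subunits moved least among the genes upstream of the kinase. *Gng7*, the gamma subunit that assembles with the olfactory-type alpha subunit, ran from 1506 to 1938 CPM (median 1732) in WT + IPTG and from 1059 to 1374 (median 1236) in LacQ140 at 12 months, without overlap (log2 fold change -0.48 ± 0.05, adjusted *P* = 4.83e-11). *Gnal*, that alpha subunit, ran from 737 to 959 CPM (median 896) in WT + IPTG and from 619.6 to 802 (median 745) in LacQ140. Its log2 fold change of -0.25 ± 0.05 had an adjusted *P* of 5.49e-05 but a fold change of 1.19, just under the bound, and it was called without WT + IPTG M5. *Prkar2b*, the type II beta regulatory subunit of protein kinase A, was 96.5 ± 8.56 CPM in WT + IPTG (n = 10) and 85.2 ± 8.00 in LacQ140 (SD, n = 9) and did not pass (-0.17 ± 0.07, adjusted *P* = 0.0714).

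**Figure D2:**
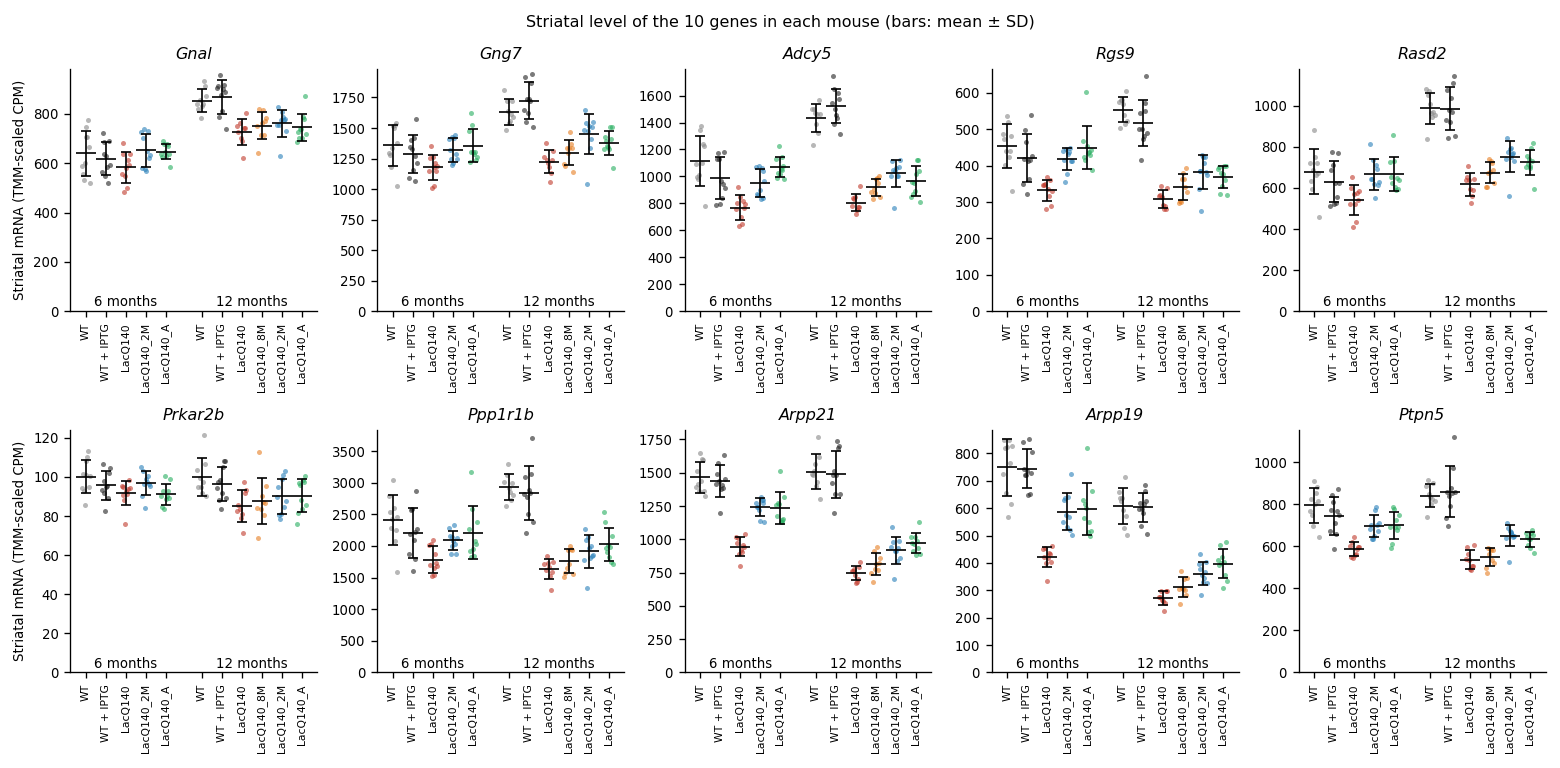
TMM-scaled CPM of each of the 10 genes in striatum, by group at 6 and at 12 months (all axes start at 0); each point is a mouse, and the bars give the mean and SD of 9 or 10 mice. LacQ140 (red) stands apart from WT + IPTG (black) in *Arpp19* and *Arpp21* at 6 months and in 8 genes at 12 months, and at 12 months the means of the lowering groups lie between those of LacQ140 and WT + IPTG in those 8 genes.

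The LacQ140 difference at 12 months was larger than at 6 months in 7 of the 10 genes by the test of the difference itself, where 1.37% of 37391 genes were called in that direction. The log2 difference of differences was -0.56 ± 0.10 in *Adcy5* (adjusted *P* = 0.000124), -0.49 ± 0.12 in *Ppp1r1b* (0.0130), -0.46 ± 0.11 in *Rasd2* (0.00671) and -0.40 ± 0.10 in *Rgs9* (0.00967). It was -0.39 ± 0.08 in *Arpp21*, -0.37 ± 0.09 in *Gng7* and -0.34 ± 0.08 in *Ptpn5* (adjusted *P* from 0.00111 to 0.00766). *Arpp19*, with the largest decline at both ages, had a difference of -0.33 ± 0.11 that did not pass (adjusted *P* = 0.0915; 0.0418 with edgeR's filterByExpr). *Rasd2* and *Gng7*, which were not called at 6 months in the main fit, were thus among the genes whose decline was larger at 12 months, and *Gnal* (-0.18 ± 0.08) and *Prkar2b* (-0.12 ± 0.08) did not pass. Without the libraries high in neighbouring-tissue markers *Rasd2* was called at 6 months (-0.34). The difference between ages was not tested without them.

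In the cortex, none of the 10 genes was called in LacQ140 against WT + IPTG, at 6 months, where 0.861% of 35987 genes were called, or at 12 months, where 0.0696% of 34493 were. By the quasi-likelihood test 1 gene at 6 months (*Adcy5*, -0.16, adjusted *P* = 0.384) and 2 genes at 12 months (*Arpp19*, -0.39, adjusted *P* = 0.274; *Arpp21*, -0.15, adjusted *P* = 0.393) had an unadjusted *P* value below 0.05, and DESeq2 called none. Cortical *Ppp1r1b* ran from 110.3 to 201 CPM (median 130.0) in WT + IPTG and from 112 to 162 (median 135) in LacQ140 at 6 months, so that the LacQ140 range lay within the WT + IPTG range. Cortical *Arpp19* at 12 months ran from 619 to 1160.3 CPM (median 841) in WT + IPTG and from 592 to 707 (median 649.6) in LacQ140, with wide spread in the control group.

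The LacQ140 difference was larger in striatum than in cortex, by the test of the difference between tissues, in 2 genes at 6 months: *Arpp19* (-0.77 ± 0.11, adjusted *P* = 2.23e-06) and *Arpp21* (-0.52 ± 0.07, adjusted *P* = 2.50e-07), where 0.403% of genes were called in that direction. With the mouse as a block, since both tissues came from the same mice, *Ptpn5* was called as well (-0.28, adjusted *P* = 0.0145, against 0.0908 without the block). At 12 months it was larger in striatum in 8 genes, where 1.57% of genes were called, from *Gng7* (-0.57 ± 0.15) to *Adcy5* (-1.12 ± 0.22). *Ppp1r1b* was at -0.73 ± 0.16 (adjusted *P* = 0.00121) and *Arpp21* at -0.85 ± 0.08 (adjusted *P* = 6.69e-16). *Gnal* (-0.40 ± 0.16, adjusted *P* = 0.227) and *Prkar2b* (-0.17 ± 0.10) did not pass.

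**Figure D3:**
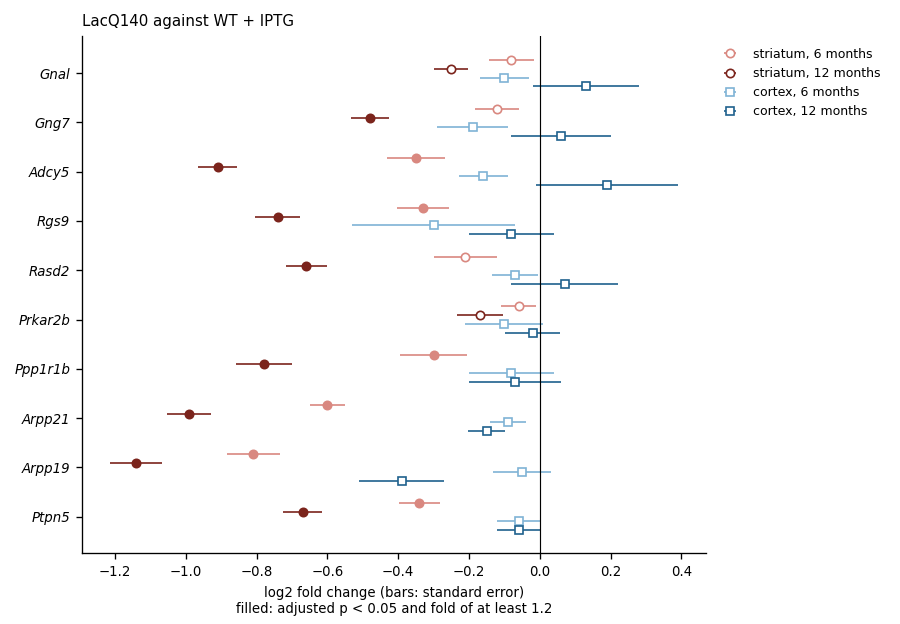
Log2 fold change of LacQ140 against WT + IPTG for the 10 genes in striatum (circles) and cortex (squares) at 6 (light) and 12 months (dark), with standard errors; filled symbols mark called genes. The filled symbols are striatal only, 6 at 6 months and 8 at 12 months, and the 12-month circles lie left of the 6-month circles in every gene.

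Lowering m*Htt* from conception or from 2 months of age was compared with LacQ140 at 6 months. In LacQ140_A striatum 4 of the 10 genes were called higher, where 1.24% of genes were called higher; in LacQ140_2M striatum 4 were, where 0.659% were. In both groups these were *Arpp19* (0.49 ± 0.07 in LacQ140_A and 0.48 ± 0.07 in LacQ140_2M), *Arpp21* (0.38 ± 0.05 and 0.39 ± 0.05), *Adcy5* (0.47 ± 0.08 and 0.30 ± 0.08) and *Rgs9* (0.43 ± 0.07 and 0.33 ± 0.07). The 2 comparisons share the LacQ140 mice. *Arpp21* ran from 1131 to 1509.9 CPM (median 1215) in LacQ140_A and from 1129 to 1321 (median 1258) in LacQ140_2M, all above the highest LacQ140 mouse (1041). *Arpp19* ran from 497 to 819 CPM (median 583) in LacQ140_A and from 501 to 726 (median 571) in LacQ140_2M, again all above the highest LacQ140 mouse (463). The spiny neuron markers moved with these comparisons: 8 of 8 were called higher in LacQ140_A (median log2 fold change 0.49) and 7 of 8 in LacQ140_2M (0.38), with summed levels from 5195 to 6173 CPM and from 4695 to 5822 CPM against 3189 to 4395 in LacQ140. At 12 months 4 of 8 were called higher in LacQ140_A (median 0.34), 5 in LacQ140_2M (0.36) and 0 in LacQ140_8M (0.19), with summed levels from 3701 to 5099, 3123 to 4736 and 3174 to 4030.2 CPM against 2742 to 3528 in LacQ140. Their part in the differences of the 10 genes was not tested.

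The *Adcy5* call in LacQ140_2M at 6 months was near the threshold (adjusted *P* = 0.0395) and was lost with the replicate number as a block (0.31, adjusted *P* = 0.0526) and without any of 10 single libraries (LacQ140 F1, F4, M1, M2 or M4, or LacQ140_2M F1, F4, M2, M3 or M5; adjusted *P* 0.0513 to 0.105). *Ppp1r1b* was 2208 ± 419 CPM in LacQ140_A, 2090.4 ± 152 in LacQ140_2M and 1786 ± 207 in LacQ140 (SD, n = 10 each), and did not pass in LacQ140_A (0.30 ± 0.10, adjusted *P* = 0.0958) or in LacQ140_2M (0.22 ± 0.10, adjusted *P* = 0.330). DESeq2 called it in LacQ140_A (adjusted *P* = 0.0417). So did edgeR with filterByExpr (0.0343), without robust moderation (0.0409) and without the libraries high in neighbouring-tissue markers (0.0171), and without those libraries the count of called genes was 6. *Rasd2* did not pass in either group (0.29 ± 0.09 in both, adjusted *P* = 0.0714 and 0.0909), but DESeq2 called it in both (0.0340 and 0.0457). In both groups it was also called by edgeR with filterByExpr (0.0289 and 0.0361), without robust moderation (0.0355 and 0.0453) and with only the 2 groups in the fit (0.0362 and 0.0361). *Ptpn5* had adjusted *P* values of 0.00632 and 0.0112 at fold changes of 1.19 and 1.18, under the bound.

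The same comparison at 12 months included LacQ140_8M. In LacQ140_A striatum 3 genes were called higher, where 0.509% of genes were: *Arpp19* (0.54 ± 0.07, adjusted *P* = 5.20e-07), *Arpp21* (0.38 ± 0.06, adjusted *P* = 5.23e-05) and *Ppp1r1b* (0.30 ± 0.08, adjusted *P* = 0.0346). Another 4 (*Adcy5*, *Rgs9*, *Rasd2* and *Ptpn5*) had adjusted *P* values from 0.00489 to 0.0197 at fold changes of 1.17 to 1.19, so that 7 were called without the bound (1.17% of genes). *Ppp1r1b* ran from 1714 to 2543 CPM (median 1974) in LacQ140_A against 1312 to 1844 (median 1666) in LacQ140. The groups overlapped, and the call was lost with the replicate block (0.29, adjusted *P* = 0.0540), with the length slope as a covariate (0.25, under the fold bound) and without any of 6 single libraries (LacQ140 M2, M3 or M4, or LacQ140_A F1, F2 or M4; adjusted *P* 0.0628 to 0.101). Leaving out LacQ140 F3 or M5, or LacQ140_A F3, F5 or M5, brought the count to 5.

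In LacQ140_2M striatum at 12 months 6 genes were called higher than in LacQ140, where 0.455% of genes were: *Arpp19* (0.40 ± 0.07), *Adcy5* (0.34 ± 0.06), *Rgs9* (0.30 ± 0.06), *Arpp21* (0.29 ± 0.06), *Rasd2* (0.28 ± 0.06) and *Ptpn5* (0.27 ± 0.06), with adjusted *P* from 7.76e-05 to 0.00445. *Gng7* (0.24 ± 0.05, adjusted *P* = 0.00777) lay under the bound. *Adcy5* ran from 765 to 1124 CPM (median 1045) in LacQ140_2M and from 725 to 929.6 (median 784) in LacQ140, and only the lowest LacQ140_2M mouse, F4, lay within the LacQ140 range. The count fell to 3 without LacQ140_2M F2. *Ppp1r1b* did not pass (0.22 ± 0.08, adjusted *P* = 0.296). In LacQ140_8M, with IPTG withdrawn at 8 months, 0 of the 10 genes were called against LacQ140, where 0.0% of genes were: the log2 fold changes ran from 0.03 (*Ptpn5*) to 0.19 ± 0.07 (*Arpp19*), 4 genes had an unadjusted *P* value below 0.05, and each adjusted *P* value was 0.871 or more. Over all genes 1757 of 35386 had an unadjusted *P* value below 0.05 by the quasi-likelihood test. DESeq2 called none of the 10 and 1 gene in all.

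The lowering groups were then set against each other. No gene of the 10 was called between LacQ140_2M and LacQ140_A at 6 months (0.0251% of genes called) or at 12 months (0.0367%), and the log2 fold changes ran from -0.17 (*Adcy5*, SE 0.08) to 0.09 at 6 months and from -0.14 (*Arpp19*, SE 0.07) to 0.09 at 12 months; 1 and 0 of the 10 had an unadjusted *P* value below 0.05, and DESeq2 called none. Between LacQ140_8M and LacQ140_2M at 12 months all 10 point estimates were below 0, from -0.02 (*Gnal*) to -0.25 (*Ptpn5*), and 7 had an unadjusted *P* value below 0.05. Over all genes 2626 of 35386 had such a value. None of the 10 was called, where 0.0876% of genes were. *Ptpn5* had an adjusted *P* of 0.0368 at a fold change of 1.19, 1 gene of the 10 without the bound (0.0961% of genes), and it was called without LacQ140_2M F4 or LacQ140_8M F4, or without the libraries high in neighbouring-tissue markers.

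The lowering groups were also compared with wild type: LacQ140_A with WT, neither of which was given IPTG, and LacQ140_2M and LacQ140_8M with WT + IPTG, in which IPTG was not withdrawn. At 6 months *Arpp19* alone was called lower in LacQ140_A against WT (-0.33 ± 0.07, adjusted *P* = 0.0127; 0.422% of genes called lower) and in LacQ140_2M against WT + IPTG (-0.34 ± 0.07, adjusted *P* = 0.00910; 0.492%). Both *Arpp19* calls were lost without the libraries high in neighbouring-tissue markers (-0.30 and -0.35, adjusted *P* = 0.0978 and 0.150), and that in LacQ140_A also when the fit held only LacQ140_A and WT (-0.33, adjusted *P* = 0.0957). *Arpp21* had adjusted *P* values of 0.00282 and 0.0149 at fold changes of 1.19 and 1.15, which made 2 genes in each group without the bound (1.06% and 1.35% of genes), and was called in LacQ140_A without WT M5 or LacQ140_A F5. In LacQ140_2M *Arpp21* was called without the libraries high in neighbouring-tissue markers (-0.28, adjusted *P* = 0.00924). *Ppp1r1b* was at -0.13 ± 0.10 and -0.07 ± 0.10.

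At 12 months 7 of the 10 genes were called lower in LacQ140_A against WT (1.88% of genes called lower), 7 in LacQ140_2M against WT + IPTG (3.14%) and 8 in LacQ140_8M against WT + IPTG (4.13%). All 8 spiny neuron markers were called lower in each of these comparisons as well (median log2 fold changes -0.62, -0.62 and -0.77), against 1 of 8 in each comparison of lowering groups with wild type at 6 months (-0.13 and -0.11). Summed levels of other markers differed too. In LacQ140_8M and WT + IPTG at 12 months the medians were 10146.1 and 12769.4 CPM for oligodendrocyte and 1803.5 and 2117.1 for astrocyte markers. For cortical excitatory neuron markers they were 43.4 and 31.5. The part of all these markers in the differences was not tested. *Ppp1r1b* stood at -0.53 ± 0.08 in LacQ140_A, -0.56 ± 0.08 in LacQ140_2M and -0.69 ± 0.08 in LacQ140_8M, beside -0.78 ± 0.08 in LacQ140. *Arpp19* stood at -0.61 ± 0.07, -0.73 ± 0.07 and -0.95 ± 0.07, beside -1.14 ± 0.07. *Gng7* was called in LacQ140_8M (-0.41 ± 0.05) and was at -0.24 ± 0.05 in the other two, under the bound; it was called in LacQ140_2M without LacQ140_2M F2 or WT + IPTG M5.

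Relative to the WT + IPTG mean at 12 months, *Adcy5* was at 63.3% in LacQ140_A, 67.2% in LacQ140_2M, 60.4% in LacQ140_8M and 52.9% in LacQ140, and *Arpp21* at 65.2%, 61.5%, 54.6% and 50.1%. Every mouse of these groups lay below the lowest WT + IPTG mouse in both genes. WT, which like LacQ140_A was never given IPTG, was at 94.1% of the same mean in *Adcy5* and 101.3% in *Arpp21*. The difference of each of the LacQ140_A and LacQ140_2M groups from LacQ140 was set against age, and 0 of the 10 genes were called in either (0.0990% and 0.0187% of genes called), with 1 and 0 at an unadjusted *P* value below 0.05; *Ppp1r1b* was at 0.01 ± 0.12 and 0.00 ± 0.12.

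**Figure D4:**
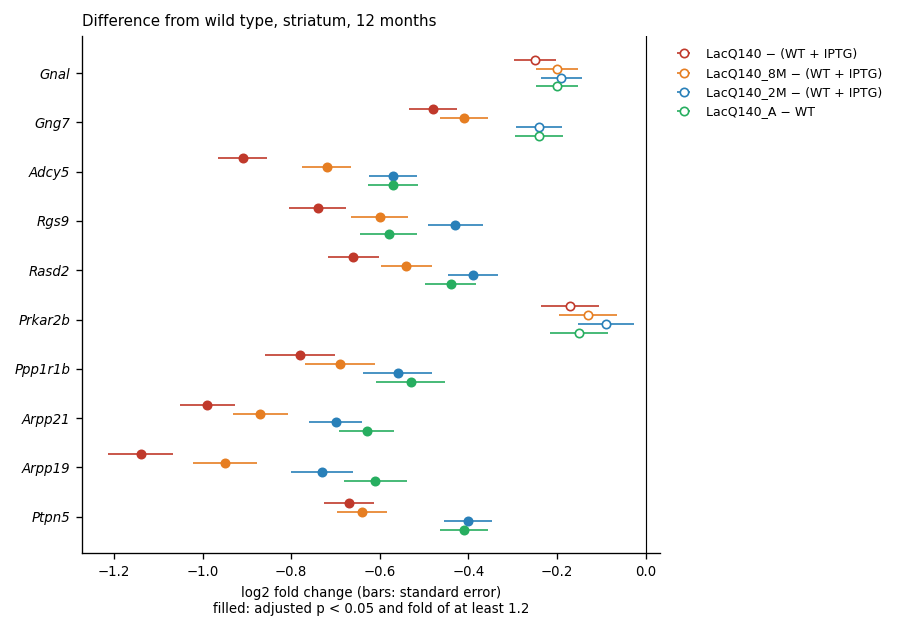
Log2 fold change from wild type (WT for LacQ140_A, WT + IPTG for the others) in the 12-month striatum, with standard errors, for LacQ140 (red), LacQ140_8M (orange), LacQ140_2M (blue) and LacQ140_A (green); filled symbols mark called genes. All values lie below 0, and LacQ140 is farthest from 0 in each of the 10 genes; LacQ140, LacQ140_2M and LacQ140_8M share the WT + IPTG mice.

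In the cortex, none of the 10 genes was called in WT + IPTG against WT at 6 (0.528% of genes called) or 12 months (0.0%), in LacQ140_A (0.0%) or LacQ140_2M (0.0%) against LacQ140 at 6 months, or in LacQ140_A (0.0116%), LacQ140_2M (0.0493%) or LacQ140_8M (0.0%) against LacQ140 at 12 months. From 0 to 3 of the 10 had an unadjusted *P* value below 0.05 in each, and DESeq2 called none. With only the 2 groups in the fit, LacQ140_A against LacQ140 at 12 months had 132 times as many genes called, *Arpp19* (0.28, adjusted *P* = 0.0240) among them. The largest value in the lowering groups was -0.37 ± 0.20 in *Adcy5* of LacQ140_A at 12 months (adjusted *P* = 0.452). The LacQ140 difference in striatum was also compared between the sexes: 0 of the 10 genes were called at 6 or 12 months (0.0% of genes called in each), with 0 and 5 at an unadjusted *P* value below 0.05. Over all genes 1370 of 35808 and 3210 of 35386 had such an unadjusted value. At 12 months *Ptpn5* differed most (-0.39 ± 0.10 in males minus females, adjusted *P* = 0.210).

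Most of the 10 genes varied together from mouse to mouse, *Arpp19* and *Prkar2b* less than the rest. Over the 107 striatal libraries, with each group centred on its mean, *Gng7* and *Rasd2* (Pearson's r = 0.87) and *Adcy5* and *Rasd2* (0.83) varied most alike, and *Gng7*, *Adcy5*, *Rgs9*, *Rasd2*, *Ppp1r1b* and *Ptpn5* correlated with each other at 0.62 to 0.87. Every pair but *Adcy5* and *Arpp19* was positive. *Arpp19* varied with *Arpp21* (0.71) but hardly with *Rgs9* (0.02) or *Adcy5* (-0.12). Against the summed spiny neuron markers r ran from 0.35 (*Arpp19*) to 0.85 (*Gnal* and *Rasd2*), and against the thalamic markers from -0.59 (*Arpp21*) to -0.29 (*Prkar2b*). Against the slope of log2 CPM on log2 transcript length the genes went in both directions, from 0.50 (*Gnal*) and 0.38 (*Adcy5*) to -0.27 (*Arpp19*) and -0.32 (*Ppp1r1b*). These libraries share total counts and dissection, and the coefficients are given as a description.

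The genes with a striatal pattern most like that of *Ppp1r1b* among 13352 genes (log2 CPM, centred within each age, 107 libraries) were *Hpca*, which encodes the calcium sensor hippocalcin (r = 0.975), *Fbxl16* (0.942), *Necab2* (0.933), *Lrrc10b* (0.930) and *Rasgrp2* (0.928). *Rgs9* stood at rank 6, *Rasd2* at 15, *Ptpn5* at 25, *Adcy5* at 72, *Arpp21* at 89 and *Gng7* at 105. *Arpp19* (r = 0.755), *Gnal* (rank 833) and *Prkar2b* (rank 2065) were less alike. With the groups centred as well, r was 0.941 for *Hpca* and 0.17 for *Arpp19*.

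A list of 100 other genes of the cascade, also chosen with earlier results of these data known, was then examined. It shares receptors and *Pde10a* with the spiny neuron markers. In LacQ140 against WT + IPTG, 21 of the 100 were called lower and 3 higher at 6 months, and 33 lower and 8 higher at 12 months; over all genes 3.85% were called lower and 3.93% higher at 6 months, and 4.77% and 4.51% at 12 months. Of 6 receptors of spiny neurons, 5 were called lower at 6 months and all 6 at 12 months, among them the dopamine receptors *Drd1* (-0.39 and -0.82) and *Drd2* (-0.45 and -0.86), the adenosine receptor *Adora2a* (-0.44 and -1.06) and *Gpr6* (-0.46 and -0.92). None of the 19 other G protein subunits was called lower at either age, and 2 were called higher at 6 months and 4 at 12 months, led by the gamma subunits *Gng3* (0.46 and 0.66) and *Gng4* (0.40 and 0.95), with *Gng11* (0.43) at 12 months.

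Among 12 RGS proteins and their partners, 4 were called lower at 6 months, including *Rgs4* (-0.65), *Rgs14* (-0.60) and *Gnb5* (-0.38), the beta subunit that binds *Rgs9*. At 12 months 6 were lower, *Rgs14* (2.3-fold) and *Rgs4* (1.81-fold) most, and 1 was higher: *Rgs9bp*, a membrane anchor of *Rgs9*, by 2.38-fold (log2 fold change 1.25). The *Rgs9bp* call was much nearer the threshold than that of *Rgs14* (adjusted *P* = 0.0161 against 3.98e-18 in edgeR). Of 8 other adenylyl cyclases 2 were called lower at 6 months (*Adcy4*, -0.62; *Adcy8*, -0.33) and 3 at 12 months (*Adcy4*, -0.51; *Adcy9*, -0.45; *Adcy3*, -0.29). Of 11 phosphodiesterases, which break down cyclic nucleotides, *Pde10a* (-0.60 and -1.10) and *Pde1b* (-0.41 and -0.68) were called lower at both ages, *Pde4d* was called higher at 6 months (0.39), and 5 in all were called lower at 12 months, *Pde7b* (-0.55) among them.

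Other protein kinase A subunits, anchors and inhibitors included 0 of 10 called at 6 months, and at 12 months *Akap5* (-0.41) and *Pkig* (-0.28) lower and *Prkar1b* (0.33) higher. Of 12 protein phosphatase genes 6 were called lower at 6 months, including *Ppp1r1a* (-0.43), which encodes phosphatase inhibitor 1, *Ppp2r2a* (-0.39) and *Ppp1cb* (-0.37), and 7 at 12 months, including *Ppp1r9b* (-0.70, spinophilin), *Ppp1r1a* (-0.68) and *Ppp3ca* (-0.60, calcineurin). Of 9 kinases that act on DARPP-32 and the ARPP proteins, none was called at 6 months; at 12 months *Mastl*, the Greatwall kinase that phosphorylates ARPP-19, was higher (0.93) and *Mast3* lower (-0.29). Of 6 paralogs, *Ptpn7* (-0.82 and -1.58) and *Rasd1* (-0.66 and -0.87) were called lower at both ages and *Ptprr* was called higher at 12 months (0.36). Of 7 STEP substrates, *Ptk2b* alone was called, at 12 months (-0.28).

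Across the 100 genes, 16 were called higher and 3 lower in LacQ140_A against LacQ140 at 6 months, and 12 higher and 2 lower in LacQ140_2M; over all genes 1.24% were called higher and 0.533% lower in LacQ140_A, and 0.659% and 0.492% in LacQ140_2M. *Gng3* (-0.28 and -0.29) and *Gng4* (-0.29 and -0.40), higher in LacQ140, were called lower in both, and *Pde4d* (-0.31) in LacQ140_A. At 12 months 6 were called higher and 1 lower in each group, and 0 in LacQ140_8M; over all genes 0.509% were called higher and 0.342% lower in LacQ140_A, 0.455% and 0.141% in LacQ140_2M and 0.0% in LacQ140_8M. The gene called lower was *Gng4* (-0.41 in LacQ140_A and -0.39 in LacQ140_2M), and *Adora2a* (0.40 and 0.48) and *Ptpn7* (0.54 and 0.60) were among those called higher. In the cortex *Adcy4* alone (-0.47) was called in LacQ140 against WT + IPTG at 6 months and none of the 100 at 12 months. These genes were named after their values were seen. In the LacQ140 striatum some markers of other cell types were also called lower, 4 of 6 microglial, 3 of 6 oligodendrocyte and 1 of 6 astrocyte genes at 6 months and 1, 2 and 1 at 12 months, and of 8 cortical excitatory neuron genes 1 was lower and 1 higher at 6 months and 3 were higher at 12 months. Of 5 endothelial genes 1 and 2 were called lower, of 4 thalamic genes 2 and 0, of 5 choroid plexus genes 0 and 2 and of 6 interneuron genes 0 and 1. Their part in the differences above was not tested.

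**Figure D5:**
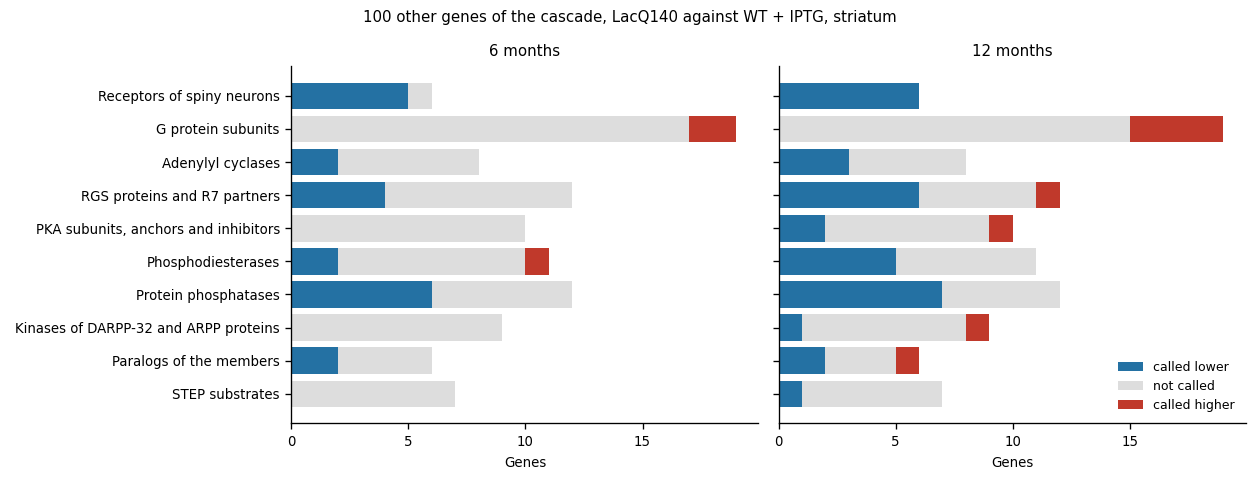
Number of the 100 other cascade genes called lower (blue), called higher (red) or not called (grey) in LacQ140 against WT + IPTG striatum, by role, at 6 and 12 months. Receptors are nearly all blue at both ages, G protein subunits hold red and no blue, and kinases and kinase A subunits are mostly grey.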

How the data were processed

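Total RNA of striatum and cortex was sequenced as paired-end reads. What the authors deposited are unnormalized expected counts of genes, in a table for each age; 32.5% of nonzero values were not whole. The build is GRCm38 per the labels. The aligner, the quantification tool and whether counting used strand are not given in the sources used here. Expected counts were rounded. A single fit per tissue and age held all its groups, in edgeR 4.0.16 (R 4.3.3), by the quasi-likelihood F-test with robust moderation and TMM scaling, over genes with at least 1 count, with Benjamini-Hochberg adjustment over all genes tested. Calls needed an adjusted *P* value below 0.05 and a change of 1.2 times or more, the bound the study used. Differences between ages, tissues and sexes were tested as interaction terms.

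Robust moderation was chosen after results of the fit without it had been seen, because on simulated counts of LacQ140 against WT + IPTG, 12-month striatum (31271 genes, 3 draws), 10.9% of calls were false without it and 5.20% with it; it recovered 83.3% of genes changed by 0.5 and 99.0% of those changed by 1 on the log2 scale. The 10 genes, the cascade list and the markers were chosen with earlier results of these data known. All 10 genes were named throughout; of the cascade list the called genes with the 3 largest changes per role and age were named, and others as stated. Libraries held 33292057 to 68038831 counts. Samples were grouped by their labels. No 2 libraries of a group were alike within sampling noise (lowest chi-square per degree of freedom 6.50 over 963 pairs). Same-numbered mice of different groups did not deviate together (mean r from 0.02 to 0.07), so replicate numbers were not taken as pairs. Both tissues came from the same mice (mean r 0.208 and 0.139 between the tissues of a mouse). Alternatives were DESeq2 1.42.0 with its own size factors, edgeR's filterByExpr, no fold bound, fewer groups, covariates and blocks, and leaving out single libraries. Of the gene identifiers, 54495 of 54532 matched the annotation used for gene positions and lengths. Promoter sequences are from RefSeq (GRCm38.p6).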

Additional observations from a re-analysis of the deposited data

Results flagged for a closer look

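Single mice stood far from the rest of their group in 18 of 220 sets of a gene, tissue, age and group by Dixon's test at the 95% level, which flags about 1 in 20 sets by chance. LacQ140_2M F4 was the lowest 12-month striatum of its group in 6 of the 10 genes: *Ppp1r1b* at 1332.7 CPM, *Gng7* at 1039.9, *Adcy5* at 764.7, *Gnal* at 630.7, *Rasd2* at 558.4 and *Ptpn5* at 528.2. This library was also among those high in neighbouring-tissue markers, and its part in the values was not tested beyond leaving it out.

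In the 6-month striatum, LacQ140_A F4 was high in *Rasd2* (859.5 CPM) and *Rgs9* (601.9), and LacQ140_A F5 in *Arpp21* (1509.9) and *Arpp19* (818.8). LacQ140 F5 was low in *Arpp19* (333.8 CPM) and *Prkar2b* (75.8). In the cortex, LacQ140 F2 was high in *Gng7* (165.5 CPM) and LacQ140_A F3 in *Rgs9* (22.8) at 6 months. At 12 months WT F5 was high in *Rgs9* (15.7 CPM), LacQ140_8M F3 was high in *Arpp19* (1003.3) and low in *Ptpn5* (135.5), and LacQ140_2M M3 was low in *Arpp21* (227.5).

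The LacQ140 difference from WT + IPTG was larger in striatum than in cortex by an interaction test. At 6 months the log2 differences were -0.77 in *Arpp19* and -0.52 in *Arpp21*. At 12 months they were -1.12 in *Adcy5*, -0.85 in *Arpp21*, -0.77 in *Arpp19*, -0.76 in *Rasd2*, -0.73 in *Ppp1r1b*, -0.67 in *Rgs9*, -0.62 in *Ptpn5* and -0.57 in *Gng7*; the 12-month cortex libraries had the negative length slope given above. In striatum the difference was larger at 12 than at 6 months, by -0.56 in *Adcy5*, -0.49 in *Ppp1r1b*, -0.46 in *Rasd2*, -0.40 in *Rgs9*, -0.39 in *Arpp21*, -0.37 in *Gng7* and -0.34 in *Ptpn5*, where age and the labelled batch cannot be told apart.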

How the results depend on the processing

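Of 289 counts of called genes over 35 comparisons under the alternatives, 281 lay within 1.5 times the main count. Of 2890 values of single genes 2845 kept their call, 6 lost it and 39 gained it; none that was called changed sign, and 48 that were not called did. Without the fold bound, the count was 2 in LacQ140_A against WT and 2 in LacQ140_2M against WT + IPTG at 6 months, and 7 in LacQ140_A against LacQ140 and 1 in LacQ140_8M against LacQ140_2M at 12 months. With only the 2 groups compared in the fit it was 0 in LacQ140_A against WT at 6 months, and in the 12-month cortex 1 in LacQ140_A against LacQ140 (*Arpp19*, 0.28, adjusted *P* = 0.0240). Without the libraries high in neighbouring-tissue markers, an alternative chosen after seeing the data, it was 0 in LacQ140_A against WT at 6 months and 1 in LacQ140_8M against LacQ140_2M. The cause was not tested.

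Leaving out single libraries, the counts ran from 5 to 6 in LacQ140 against WT + IPTG at 6 months and from 8 to 9 at 12 months. Against LacQ140 they ran from 4 to 5 in LacQ140_A and from 3 to 5 in LacQ140_2M at 6 months, and from 2 to 5 and from 3 to 7 at 12 months. They ran from 1 to 2 in LacQ140_A against WT at 6 months, from 7 to 8 in LacQ140_2M against WT + IPTG at 12 months and from 0 to 1 in LacQ140_8M against LacQ140_2M. With the replicate number as a block, the count was 3 in LacQ140_2M against LacQ140 at 6 months and 2 in LacQ140_A against LacQ140 at 12 months, and with the mouse as a block 3 in the difference between tissues at 6 months; the block changed no other count of the 10 genes.

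Over all genes, counts above 0 moved by more than 1.5 times as follows, with the main count first unless a ratio is given. Without the libraries high in neighbouring-tissue markers, at 6 months in striatum, LacQ140 against WT + IPTG had 2785 and 1461 genes, WT + IPTG against WT 163 and 0, LacQ140_A against WT 0.326 times the main count and LacQ140_2M against WT + IPTG 357 and 46; at 12 months WT + IPTG against WT had 49 and 0, LacQ140_2M against LacQ140_A 13 and 0 and LacQ140_8M against LacQ140_2M 31 and 14. With only the 2 groups in the fit, in striatum, WT + IPTG against WT had 163 and 84 at 6 months and 49 and 14 at 12 months, LacQ140_A against WT had 0.362 times the main count at 6 months and LacQ140_2M against LacQ140_A 13 and 0 at 12 months; in cortex WT + IPTG against WT had 190 and 92 and LacQ140 against WT + IPTG 310 and 519 at 6 months, and at 12 months LacQ140 against WT + IPTG had 24 and 104, LacQ140_A against LacQ140 had 4 and 132 times as many, and LacQ140_2M against LacQ140 17 and 0. Without the fold bound, at 12 months in striatum, LacQ140_A against WT had 1094 and 1685, LacQ140_2M against WT + IPTG 2240 and 3438 and LacQ140_8M against WT + IPTG 2816 and 4261. With DESeq2, LacQ140_2M against LacQ140_A at 6 months had 9 and 20 and WT + IPTG against WT at 12 months 49 and 128 in striatum, and in the 12-month cortex LacQ140 against WT + IPTG had 24 and 64, LacQ140_A against LacQ140 4 and 19 and LacQ140_2M against LacQ140 17 and 0. With filterByExpr the 12-month counts were 49 and 142 in WT + IPTG against WT in striatum, and 24 and 54, 4 and 12, and 17 and 1 in those cortical comparisons; the difference of the LacQ140 effect between tissues at 6 months had 249 and 375, and those of LacQ140_A and LacQ140_2M between ages 37 and 70, and 7 and 40. Without robust moderation, at 12 months, WT + IPTG against WT had 49 and 77 in striatum, and in cortex LacQ140_A against LacQ140 4 and 15 and LacQ140_2M against LacQ140 17 and 29. With the length slope as a covariate, WT + IPTG against WT in striatum at 6 months had 1.52 times the main count, and LacQ140 against WT + IPTG in cortex 310 and 550 at 6 months and 24 and 68 at 12 months. With both WT groups averaged as the control, the latter had 310 and 638 and 24 and 59. With the replicate block, WT + IPTG against WT in striatum at 12 months had 49 and 10, LacQ140_2M against LacQ140 in cortex at 12 months 17 and 5 (10 with sex as a covariate) and, with the mouse as the block, the difference between tissues at 6 months 249 and 424. Of the comparisons with a count of 0, LacQ140_A against LacQ140 in the 6-month cortex had 32 genes with only the 2 groups in the fit, 17 with DESeq2, 12 with the length slope, 11 with filterByExpr, 8 with sex as a covariate and 3 without robust moderation; WT + IPTG against WT in the 12-month cortex had 56 with the length slope and 15 with DESeq2; LacQ140_2M against LacQ140 in the 6-month cortex had 7 with DESeq2 and 2 with the length slope; and LacQ140_8M against LacQ140 had up to 3 in striatum and up to 2 in cortex, and the difference between the sexes at 12 months up to 2.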
